A study of Mus musculus with 4 samples.

Results

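The 10 genes followed here encode AP-1 and immediate early transcription factors: Fos, Fosb, Fosl1, Fosl2, Jun, Junb, Jund, Egr1, Atf3 and Maff. They were measured in 4 RNA-seq libraries of cultured mouse mammary tumour cells and were chosen by symbol, and all 10 were found among the 23361 genes of the deposited table. The cells are the line 23116 MT, derived from a mammary tumour of the Chaos3 mouse model, on the C3HeB/FeJ strain. Chaos3 is an allele of the replication helicase gene Mcm4, so all groups come from a tumour of that background. The Low group is the control line itself, labelled low in Arid1a, with 2 libraries. The High group holds 1 library from each of 2 add-back clones, AB-C1 and AB-C2, which received an Arid1a expression construct by lentivirus. Arid1a encodes a DNA-binding subunit of BAF, a SWI/SNF remodeller of chromatin. Each clone is represented by a single library, and the promoter of the construct is not given in the sources used here. Libraries are numbered 1 and 2 within each group, and which High library is which clone cannot be told from the table.

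AP-1 is a dimeric transcription factor. A FOS protein (Fos, Fosb, Fosl1 or Fosl2) pairs with a JUN protein (Jun, Junb or Jund) through a leucine zipper, and the pair binds the sequence TGANTCA, while JUN proteins can also pair with each other or with ATF factors. Several of these genes are immediate early genes: serum, growth factors and stress raise their transcription within minutes through MAP kinases and without new protein synthesis. Egr1 is a zinc-finger factor induced in the same way, Atf3 is a stress-induced ATF factor, and Maff is a small MAF factor that lacks a transactivation domain. In mammary tumour cells AP-1 is best known for its part in growth, invasion and matrix-degrading enzymes.

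The promoters of Fos and Maff are shown because these genes are induced early in many cells, stood on opposite sides between the groups here, and carry different matches to the binding motifs searched. Neither difference between the groups passed the test described below. The stretches are the 140 bases before a RefSeq transcription start (build GRCm38.p6, the assembly of mm10), 5′ to 3′ on the gene's strand, with motif matches in capitals. The Fos stretch lies at chr12:85473750-85473889 and the Maff stretch, before the middle of its 3 starts, at chr15:79347380-79347519, both on the plus strand. Of the Maff stretches, that shown has the most bases in motif matches, at 17, against 0 before the first start and 5 before the last.
Fos: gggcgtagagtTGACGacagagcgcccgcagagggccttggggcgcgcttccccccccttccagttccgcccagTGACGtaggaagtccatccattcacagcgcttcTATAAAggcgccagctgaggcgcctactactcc
Maff: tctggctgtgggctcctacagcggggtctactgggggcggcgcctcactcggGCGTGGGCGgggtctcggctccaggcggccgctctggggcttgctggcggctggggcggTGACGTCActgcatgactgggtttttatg
In the Fos stretch the capitals mark the CRE core TGACG, at positions -129 to -125 and -66 to -62 from the start, and the TATA box TATAAA at -33 to -28. In the Maff stretch they mark an EGR site, GCGNGGGCG, at -88 to -80 and the full CRE TGACGTCA at -29 to -22, which contains the core on both strands. CREs are bound by CREB and ATF factors. RefSeq promoter windows of 300 bases (250 before and 50 after a start) were listed for 8 of the 10 genes, in 10 windows. Egr1 and Fosl1 had no entry. Motifs were searched on both strands unless stated. The CRE core, added after the other motifs, was found in 6 of the 10 windows (those of Atf3, Fos, Fosb and Junb and 2 of Maff), against 20.8% of all 32851 windows. The Atf3 window and these 2 Maff windows lie inside their GENCODE genes, past the 5′ ends at chr1:191218039 and chr15:79346621. The full CRE was found for Maff (1 window, 1.79% of all) and an EGR site for Fosb, Fosl2 and Maff (5.55%). All 140 bases before the RefSeq start of Fosl2 lie in a GENCODE exon, past the GENCODE gene start at chr5:32135801. Its EGR match, at -79 to -71, is therefore not upstream of the GENCODE gene. The letters TATAAA, on the gene's strand only, were found for Fos and Junb (8.32%). The Junb match lies at positions 1 to 6, from its RefSeq start onward, whereas the Fos match lies before the start. The GENCODE start of Junb, at chr8:84978718 on the minus strand, lies further downstream, so the match lies before that start. Neither the AP-1 site TGANTCA (7.81% of all windows) nor the CArG box bound by SRF (1.63%) was found in these 10 windows. Sites more than 250 bases before a start were not searched, so their absence from these genes is not shown. For Jund, the 140 bases before the RefSeq start end at chr8:70697738, upstream of the GENCODE gene start at 70698949. Motif matches describe the letters only.

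The libraries held between 13889858 and 28110812 fragments. Levels are given as CPM, fragment counts scaled to a common library total after TMM normalisation, which compares a gene between libraries, or as the authors' FPKM, which divides by transcript length and compares genes with each other. The number of cells of a type and the RNA per cell cannot be told apart in such bulk libraries. Arid1a, counted as the mouse gene, stood at 82.2 and 94.1 CPM in the libraries labelled Low and at 49.8 and 58.3 CPM in those labelled High, so it was not higher under the High label (log2 fold change -0.71, edgeR adjusted p = 0.165). Whether the construct's transcript was counted is not known, and directions below are given for the labels. Defining markers of other cell types were scarce: the 6 immune, 5 endothelial and 4 adipocyte markers summed to at most 1.87, 0.731 and 0.0814 CPM in any library, with 2, 1 and 2 of them at 0 in every library. The 6 epithelial markers summed to 2380 and 1640 CPM in the Low pair, against 2060 and 4730 CPM in the High libraries, with Krt5 at most at 1.02 CPM. The 6 fibroblast markers summed to 4490 and 3930 CPM against 737 and 447 CPM, with Thy1 at most at 1.03 CPM. The part of these marker shifts in the results below was not tested.

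By length-normalised level, the JUN genes Junb and Jund and the FOS gene Fosl2 led in every library. Mean FPKM over the 4 libraries was 91.4 for Junb, 68.3 for Jund, 46.2 for Fosl2, 27.1 for Egr1, 23.6 for Jun, 9.68 for Maff, 5.52 for Fosl1, 2.93 for Fos, 2.38 for Atf3 and 0.937 for Fosb. Junb, Jund and Fosl2 held ranks 1, 2 and 3 among the 10 in all 4 libraries. The ranges of these neighbours over the libraries overlapped all the same, at 72.4 to 106 FPKM for Junb, 48.9 to 86.4 for Jund and 35.1 to 76.1 for Fosl2. Egr1 and Jun changed places: Jun ranked above Egr1 in both Low libraries and below it in both High libraries. Fos, Atf3 and Fosl1 also overlapped in range, as did Maff (7.92 to 11.6 FPKM) and Fosl1 (2.68 to 8.42 FPKM). Junb exceeded 92.3% of the 12987 tested genes in mean FPKM, whereas Fos, Atf3 and Fosb exceeded 23.6%, 20.9% and 11.4%. The classical immediate early genes Fos and Fosb were thus at the low end, resting on 49 to 180 fragments a library between them.

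**Figure D1:**
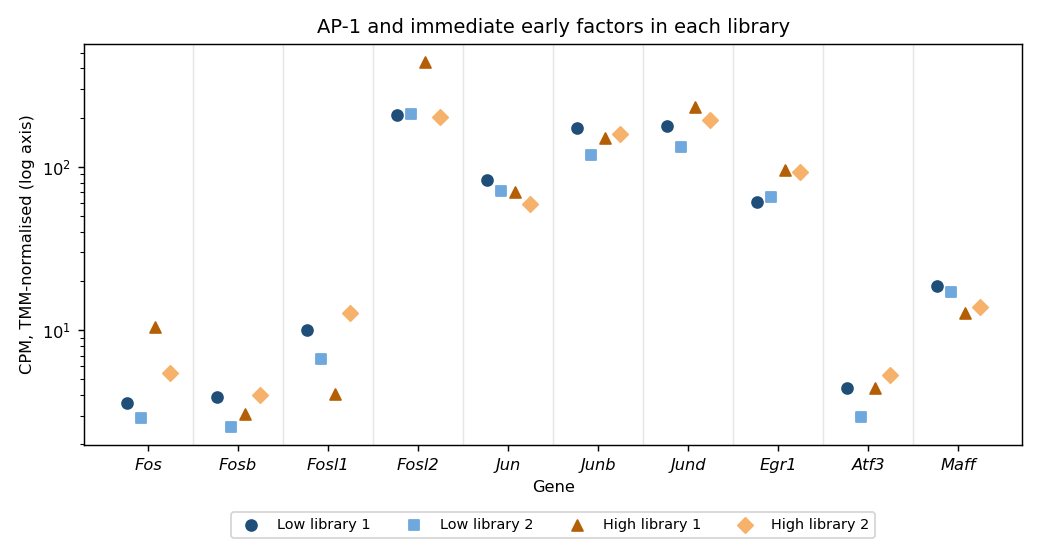
TMM-normalised CPM (log axis) of each of the 10 genes in the 2 Low and 2 High libraries, 1 point per library. Fos, Jund, Egr1 and Atf3 have both High points above both Low points, Jun and Maff have both below, and Fosl2 in High library 1 (437 CPM) stands apart from the other 3 libraries.

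Between the groups, 0 of the 10 genes passed edgeR's quasi-likelihood test at an adjusted p of 0.05, against 2.47% of the 12987 genes tested. DESeq2, limma-voom and limma on log2(FPKM + 1) also called 0 of the 10, against 8.75%, 2.47% and 2.59% of all genes. The same 0 came with upper-quartile normalisation (2.36% of all genes), no filter on low counts (4.88%), limma on log2(FPKM + 0.1) (2.66%), the replicate block (3.61%) and the crossed block (0.724%), and without High library 1 (16.3%). At an unadjusted p under 0.05 there were 2, Fos and Egr1, against 18.1% of all genes, so that share is near the background. The log2 fold change (High minus Low) was above 0 for 8 genes, against 6783 of all 12987, and below 0 for Jun and Maff. Its median was 0.28, beside 0.03 over all genes. Groups did not overlap for 6 of the 10 in CPM, 4 higher and 2 lower, against 51.0% of all genes (25.9% higher and 25.1% lower).

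Among the FOS genes, Fos and Fosl2 had their highest level in High library 1, and Fosl1 its lowest. Fos, the founding member (chr12:85473890-85477273, plus strand, mm10), stood at 3.6 and 2.89 CPM in the Low pair and at 10.5 and 5.45 CPM in the High libraries. Both High libraries lay above both Low libraries, and High library 1 was furthest from the rest. The counting intervals (95%, exact Poisson) were 2.66 to 4.76 and 2.29 to 3.6 CPM in the Low pair, against 9.03 to 12.2 and 4.57 to 6.46 CPM in the High libraries, and cover counting error only. The mean went from 3.24 ± 0.501 to 7.98 ± 3.58 CPM (SD, n = 2 each), a log2 fold change of 1.30 ± 0.51 (SE), which did not pass (edgeR adjusted p = 0.238, unadjusted p = 0.0346).

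Fosl2 (chr5:32135801-32157842, plus strand), which encodes FRA2, a FOS protein without the strong transactivation domain of Fos, stood at 207 and 212 CPM in the Low pair and at 437 and 201 CPM in the High libraries. High library 1 lay far above the other 3 libraries, and High library 2 lay just under the Low pair. The group means were 210 ± 2.99 and 319 ± 167 CPM (SD, n = 2 each), and the log2 fold change, 0.61 ± 0.37 (SE), did not pass (edgeR adjusted p = 0.451). Without High library 1 the log2 fold change of Fosl2 was -0.06. Without High library 2, both Fosl2 (log2 fold change 1.05, adjusted p = 0.00264, range over the alternatives 0.00264 to 0.932) and Fos (1.70, adjusted p = 7.83e-04, range 7.83e-04 to 0.884) passed, against 18.6% of all genes called in that setting (10.6% higher).

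Fosl1 (chr19:5447547-5455946, plus strand), encoding FRA1, which is known for its high level in invasive breast tumour lines, stood at 9.98 and 6.62 CPM in the Low pair and at 4.09 and 12.8 CPM in the High libraries. The High libraries lay on either side of the Low pair, so the log2 fold change of 0.03 ± 0.58 (SE) averaged opposite deviations (edgeR adjusted p = 0.983). Fosl1 overlaps the 3′ part of Ccdc85b, annotated on the opposite strand, and the strand setting of the counting is not given in the sources used here, so fragments of the overlap cannot be assigned with certainty. Ccdc85b varied less, at 57.1, 44, 43.9 and 55.6 CPM in Low libraries 1 and 2 and High libraries 1 and 2. Fosb, the fourth FOS gene (chr7:19302696-19310051, minus strand), was low throughout, at 3.89 and 2.56 CPM in the Low pair, against 3.09 and 3.99 CPM in the High libraries. Its groups overlapped (log2 fold change 0.14 ± 0.54 (SE), edgeR adjusted p = 0.922).

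Fosl2 was the most abundant FOS transcript, and its share and that of Fosl1 moved in opposite directions in the High libraries. As the shares are parts of the same sum, a larger Fosl2 share leaves less for Fosl1. Fosl2 made up 79.2% and 84.9% of the summed FPKM of the 4 FOS genes in the Low pair, 89.4% in High library 1 and 73.9% in High library 2. Fosl1 made up 14.4% and 10% in the Low libraries, 3.15% in High library 1 and 17.7% in High library 2. Fos itself took 4.11% and 3.47% in the Low pair, against 6.43% and 6% in the High libraries. The summed FPKM was 46 and 43.8 in the Low libraries, 85.1 in High library 1 and 47.4 in High library 2. These shares are descriptions of 4 libraries: an exact permutation test of 2 against 2 cannot go below p = 0.333.

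**Figure D2:**
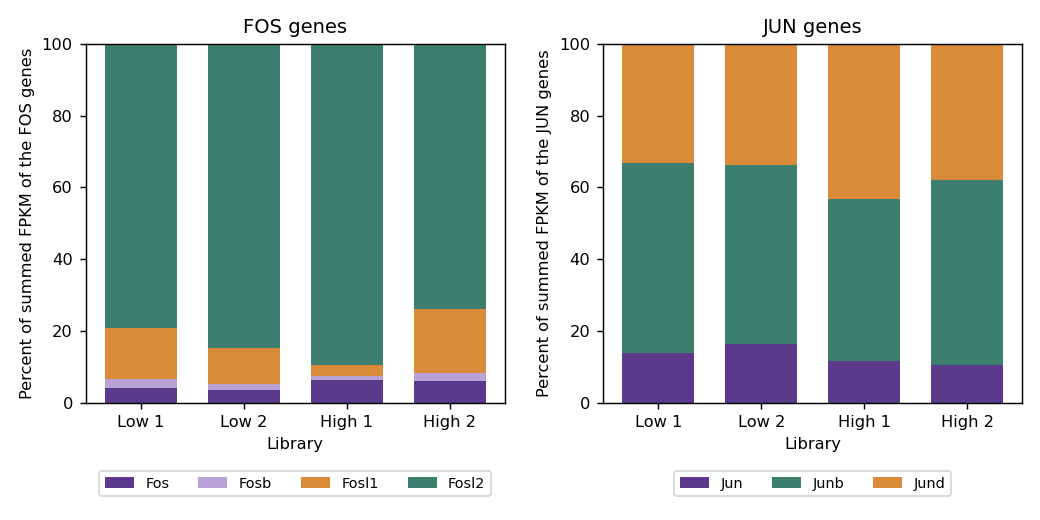
Share (%) of each gene in the summed FPKM of the 4 FOS genes (left) and the 3 JUN genes (right), 1 bar per library. Fosl2 takes 73.9% to 89.4% of the FOS sum, Fosl1 is narrowest in High library 1 (3.15%), and the Jund share is wider in both High libraries (43.1% and 38%) than in the Low libraries (33.3% and 33.7%).

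Of the JUN genes, Jund varied most over the 4 libraries and Jun and Junb less. Jun (chr4:95049034-95052222, minus strand, a single exon), which forms a strong activator with Fos, stood at 82.9 and 71.3 CPM in the Low pair and at 70.5 and 59.6 CPM in the High libraries, so that the groups were barely apart. Its log2 fold change was -0.24 ± 0.23 (SE, edgeR adjusted p = 0.619). Jund (chr8:70698949-70700616, plus strand, also a single exon), which is present in resting cells and known to restrain proliferation in some of them, stood at 179 and 132 CPM in the Low pair and at 234 and 193 CPM in the High libraries. Both High libraries lay above both Low libraries, but the log2 fold change, 0.46 ± 0.25 (SE), did not pass (edgeR adjusted p = 0.387). Junb (chr8:84974484-84978718, minus strand), often an antagonist of Jun, stood at 174 and 119 CPM in the Low pair and at 151 and 160 CPM in the High libraries, which lay between the Low values (log2 fold change 0.08 ± 0.25 (SE), edgeR adjusted p = 0.9). Junb overlaps Prdx2 on the opposite strand, so its counts carry the same uncertainty of strand. Prdx2 stood at 345 and 242 CPM in the Low pair, against 274 and 329 CPM in the High libraries. Jun and Jund overlap annotated antisense transcripts (Junos and Gm11175) for which no row was analysed here.

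As shares of the JUN family's summed FPKM, Jund made up 33.3% and 33.7% in the Low pair, against 43.1% and 38% in the High libraries. Jun made up 13.8% and 16.4% in the Low pair, against 11.6% and 10.5% in the High libraries, and Junb between 45.3% and 52.9% in all 4. The sum itself was 200 and 145 FPKM in the Low pair, against 201 and 187 FPKM in the High libraries. Low library 1 thus lay closer to the High libraries in this sum than to its own duplicate.

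Egr1 (chr18:34859823-34864984, plus strand) was close between libraries of a group, with ratios of 0.925 (Low library 1 over 2) and 0.972 (High library 2 over 1). It stood at 60.9 and 65.8 CPM in the Low pair and at 95.5 and 92.8 CPM in the High libraries, resting on 829 to 2281 fragments. Both High libraries lay above both Low libraries, by more than the difference within either group. The mean went from 63.3 ± 3.5 to 94.1 ± 1.87 CPM (SD, n = 2 each), which is 1.49-fold. The log2 fold change was 0.57 ± 0.21 (SE), with a 95% interval of 0.08 to 1.06, and did not pass over all genes (edgeR adjusted p = 0.22, unadjusted p = 0.0283). Over the 12 alternatives tried, Egr1 kept its direction, at log2 fold changes from 0.52 to 0.62, and passed in 0 of them (adjusted p from 0.141 to 0.876).

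Atf3 (chr1:191170296-191218039, minus strand), which competes with other ATF and AP-1 dimers under stress, stood at 4.41 and 2.93 CPM in the Low pair and at 4.44 and 5.29 CPM in the High libraries. Low library 1 and High library 1 were level within their counting intervals (3.36 to 5.67 and 3.5 to 5.55 CPM), so the groups hardly separated (log2 fold change 0.41 ± 0.5 (SE), edgeR adjusted p = 0.714). Maff (chr15:79346621-79359076, plus strand) stood at 18.6 and 17.2 CPM in the Low pair and at 12.8 and 13.9 CPM in the High libraries. Both High libraries lay below both Low libraries, while the log2 fold change, -0.42 ± 0.3 (SE), did not pass (edgeR adjusted p = 0.504).

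**Figure D3:**
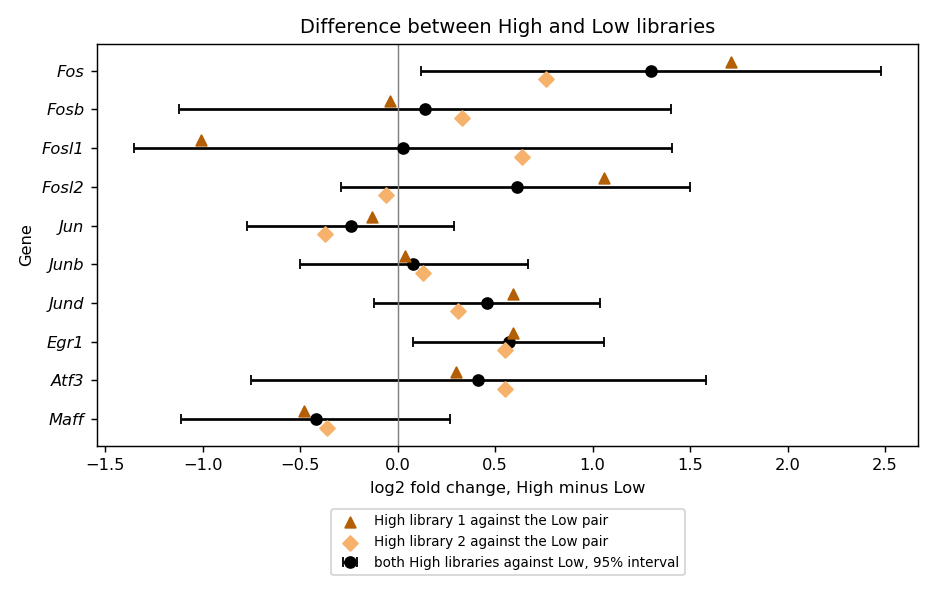
Log2 fold change (High minus Low) of each gene from all 4 libraries, with its 95% interval (black), and of each High library against the Low pair (triangles and diamonds). The intervals of Fos (0.12 to 2.48) and Egr1 (0.08 to 1.06) lie above 0 before adjustment over all genes, and the High libraries lie on opposite sides of 0 for Fosb, Fosl1 and Fosl2.

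The Low duplicates differed in a shared direction. For 8 of the 10 genes Low library 1 was above Low library 2, by up to 1.52-fold (Fosb), the exceptions being Fosl2 and Egr1 at ratios of 0.98 and 0.925. Over all tested genes Low library 1 was above in 50.3%. Junb, Jund, Fosl1 and Atf3 had ratios of 1.46, 1.36, 1.51 and 1.51. For Junb, Fosb, Fosl1 and Atf3 the ratio within the Low pair exceeds the fold between the groups (1.06, 1.1, 1.02 and 1.33).

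The clones were compared in a fit with 3 groups (the Low pair and each High library alone), which has 1 residual degree of freedom and takes the spread of each single High library from the Low duplicates. Against the Low pair, Fos (3.27-fold, adjusted p = 7.08e-04) and Fosl2 (2.09-fold, adjusted p = 0.00234) rose in High library 1, which makes 2 of 10 genes against 18.9% of all tested genes (10.7% higher). In High library 2, 0 of 10 passed with edgeR, against 17.3% of all genes, with the smallest unadjusted p at 0.0512 (Egr1). These comparisons share the Low libraries. Set directly against each other, High library 2 was higher than High library 1 in Fosl1 (log2 difference 1.65 ± 0.47 (SE), 3.13-fold, adjusted p = 0.00643) and lower in Fosl2 (-1.12 ± 0.35 (SE), 2.17-fold, adjusted p = 0.0149). That is 2 of 10 genes against 10.9% of all (4.46% higher and 6.47% lower in High library 2). Fos differed 1.93-fold between the High libraries and did not pass (adjusted p = 0.253).

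The MAP kinase feedback inhibitors, which dampen the signal that induces these factors, were compared in the same way. Between the groups 0 of the 17 passed with edgeR and with limma-voom, 3 had an unadjusted p under 0.05, and DESeq2 called 2. The shares over all genes were 2.47% with edgeR, 2.47% with limma-voom, 18.1% at an unadjusted p under 0.05 and 8.75% with DESeq2. The ERK phosphatase Dusp6 and the EGFR inhibitor Errfi1, highest of the list in mean CPM, had log2 fold changes of 0.00 and 0.48 (adjusted p = 0.995 and 0.549). Between the High libraries, 7 of the 17 passed in the 3-group fit, against 10.9% of all genes. These are named after their values were seen, and the comparison is of 1 library with 1 library, with the spread taken from the Low duplicates alone. The phosphatases Dusp4 (4.75-fold, adjusted p = 1.11e-08), Dusp7 (2.77-fold) and Dusp5 (2.32-fold) were higher in High library 2, together with Fosl1. The phosphatases Dusp1 (3.21-fold) and Dusp2 (7.49-fold, on 32 and 6 fragments), the ERK pathway inhibitor Spry1 (3.2-fold) and Errfi1 (2.17-fold) were higher in High library 1, together with Fosl2. Dusp4 stood at 97.9 and 92.5 CPM in the Low pair, 27.7 CPM in High library 1 and 131 CPM in High library 2. Dusp1 stood at 34.2 and 23 CPM in the Low libraries, 68 CPM in High library 1 and 21.2 CPM in High library 2.

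Of 23 other immediate early and early response genes tested, Arc rose and 22 did not pass, against 1.14% of all genes called higher. Arc, an activity-regulated gene known from neurons and an SRF target, stood at 4.41 and 3.33 CPM in the Low pair and at 34.1 and 28.5 CPM in the High libraries. The groups thus lay far apart, with the libraries of each group close to each other. The log2 fold change was 3.02 ± 0.33 (SE), 8.13-fold (edgeR adjusted p = 0.00707), and ranged from 2.82 to 3.23 with 1 library left out. Arc no longer passed when either Low library was left out, but neither did any other gene, so that loss is not particular to Arc. The members with the highest mean CPM, which is not divided by length, were Cyr61, a matricellular early gene, at log2 fold change -0.75 (adjusted p = 0.286), and the mRNA decay factor Zfp36l1 at 0.36 (adjusted p = 0.524). The list had a median log2 fold change of 0.13, with 14 genes above 0 and 9 below.

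In the bZIP relatives and the signalling lists, 0 genes passed between the groups with edgeR. Over all genes, 2.47% passed, 18.1% had an unadjusted p under 0.05, DESeq2 called 8.75% and limma-voom 2.47%. For 20 tested bZIP relatives the median log2 fold change was 0.06, with 5 genes at an unadjusted p under 0.05, while DESeq2 called 2 and limma-voom 0. The stress factors Atf4 and Nfe2l1, highest in mean CPM, had log2 fold changes of -0.32 and 0.34 (adjusted p = 0.517 and 0.48). Maf, a large MAF relative of Maff, is named after its values were seen. It stood at 7.93 and 7.35 CPM in the Low pair and at 66.4 and 21.8 CPM in the High libraries (log2 fold change 2.53 ± 0.56 (SE), adjusted p = 0.0955). Both High libraries lay above both Low libraries, in the direction opposite to Maff.

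Of 23 genes of the RAS, ERK, JNK and p38 cascades, 0 passed with edgeR (unadjusted p under 0.05 for 2, while DESeq2 called 1 and limma-voom 0), with a median of 0.12. For this and the following lists, the shares over all genes were 2.47% with edgeR, 18.1% unadjusted, 8.75% with DESeq2 and 2.47% with limma-voom. Nras, which encodes a RAS GTPase and is among the highest in mean CPM, had a log2 fold change of -0.31 (adjusted p = 0.576). Of the 8 genes for SRF, its partners and the EGR corepressors, 0 passed with edgeR (unadjusted p under 0.05 for 1, while DESeq2 and limma-voom called 0), with a median of -0.13. The corepressor Nab1 and the SRF partner Elk3, highest in mean CPM, had log2 fold changes of -0.03 and -0.13 (adjusted p = 0.959 and 0.835). Heat shock genes, which respond to handling as immediate early genes do, and proliferation markers gave 0 calls of 8 each with edgeR. For the heat shock genes 1 had an unadjusted p under 0.05, with 1 call by DESeq2 and 0 by limma-voom. Their log2 fold changes were above 0 for 6 and below 0 for 2. Hspa8 and Hsp90aa1, highest in mean CPM, had log2 fold changes of -0.07 and 0.02 (adjusted p = 0.907 and 0.979). Hspa1b, the gene with the unadjusted p under 0.05, is named after its values were seen. It stood at 36.7 and 27.1 CPM in the Low pair and at 65.4 and 65.8 CPM in the High libraries (log2 fold change 1.04, edgeR adjusted p = 0.0834). All 8 proliferation markers had a log2 fold change below 0, against 6204 of all 12987 genes. The unadjusted p was under 0.05 for 4 of the markers, while DESeq2 called 2 and limma-voom 0. The markers ranged from -1.15 for the mitotic kinase gene Aurka (adjusted p = 0.0852) to -0.15 for Mki67 (adjusted p = 0.805). Top2a and Mki67, highest in mean CPM, were at the small end (-0.19 for Top2a, adjusted p = 0.721). Aurka and Ccnb1, which encodes cyclin B1, are named after their values were seen. In the 3-group fit they were lower in High library 1 (2.89- and 1.89-fold, adjusted p = 3.01e-05 and 0.0207) and in High library 2 (1.8- and 1.75-fold, adjusted p = 0.036 and 0.0499), both set against the same Low pair. The part of handling and growth state in the levels of the 10 factors was not tested.

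Among 23 tested textbook AP-1 target genes, 8 fell, Areg rose and 14 did not pass, against 1.33% and 1.14% of all genes called lower and higher. The list was drawn up with the calls of several of its genes already known, so this count is not independent support for a direction, and its median log2 fold change was 0.06. Mmp10, a stromelysin, was counted with 171 fragments over both Low libraries and 1 over both High libraries, a normalised ratio of 174 (95% counting interval 30.8 to 6920; edgeR adjusted p = 0.0217). The collagenase Mmp13 fell 13.9-fold, from 6.9 ± 2.18 to 0.495 ± 0.125 CPM (SD, n = 2 each; adjusted p = 0.0256). Plau, the urokinase-type plasminogen activator, stood at 219 and 233 CPM in the Low pair and at 57 and 74 CPM in the High libraries, 3.45-fold lower (adjusted p = 0.0122). The gelatinase Mmp9 fell 3.69-fold (adjusted p = 0.0104) and the fibronectin receptor subunit Itga5 4.8-fold (adjusted p = 0.00622), while the EGFR ligand Areg rose 3.52-fold (adjusted p = 0.0351). The other falls, outside the naming rule and named after their values were seen, were those of the chemokine Ccl2, the angiogenic factor Vegfa and the cytokine Tgfb1, at 2.78-, 2.68- and 2.54-fold. Their edgeR adjusted p-values were 0.0259, 0.0277 and 0.0489, the last just under the threshold. The count depended on the tool: DESeq2 called 2 rises and 10 falls in this list, limma-voom 1 and 7, and limma on log2(FPKM + 1) 1 and 9. Over all genes these tools called 8.75%, 2.47% and 2.59% in either direction. The summed CPM of the 6 fibroblast markers, most of it from the collagen genes Col1a1 and Col1a2 in the Low pair, was also lower in the High libraries (737 and 447, against 4490 and 3930). Of the 6, Fap fell (adjusted p = 0.00738) and 5 did not pass or were too low to test. Pdgfra went the other way in High library 1, at 234 CPM against 79.2 and 97.2 CPM in the Low pair, and stood at 26.6 CPM in High library 2. The part of that shift in the AP-1 target counts was not tested. With the crossed block, chosen after seeing the data, Areg, Mmp10 and Mmp13 no longer passed (adjusted p = 0.0848, 0.0861 and 0.076). Each call named here was lost when either Low library was left out, as were all calls over the genome.

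The AP-1 targets with the highest mean CPM did not pass: Spp1, encoding osteopontin, stood at 2020 and 1470 CPM in the Low pair and at 2140 and 3200 CPM in the High libraries, a difference that missed the threshold (adjusted p = 0.319). Ccnd1, encoding cyclin D1, stood at 759 and 666 CPM against 901 and 2190 CPM (adjusted p = 0.258). Both High libraries lay above both Low libraries for each. 

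**Figure D4:**
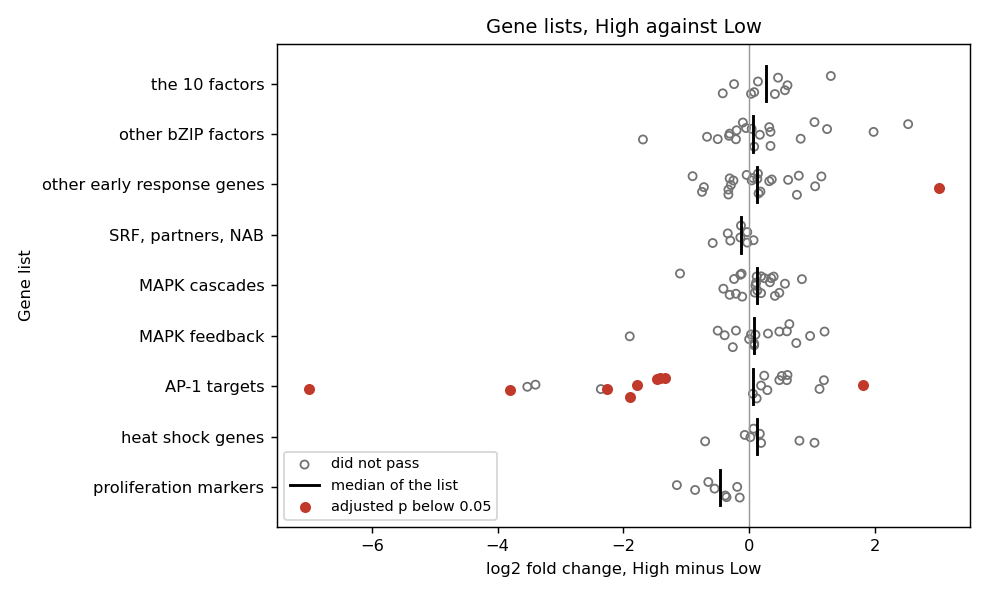
Log2 fold change (High minus Low) of each tested gene, by list, with 1 point per gene, calls at an adjusted p below 0.05 in red and a bar at each list's median. The 10 factors lie between -0.42 and 1.30 with no red point, while the AP-1 targets spread from -7.01 (Mmp10, fitted on 1 fragment in the High group) to 1.81 with 9.

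The genes nearest in pattern were sought among all tested genes by the distance between gene-centred log2 CPM over the 4 libraries. For Fosl2 these were Zfp420, Zfp780b and Rab3gap1 (distances 0.0872, 0.09 and 0.0955), all with their highest level in High library 1. For Junb they were Zfp821, Zmat5 and 2510039O18Rik (0.0324, 0.0603 and 0.0699), and for Egr1 Nit1, D430020J02Rik and Fig4 (0.0463, 0.0594 and 0.0617). These distances describe 4 libraries and say nothing of shared function or control.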

How the data were processed

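The 4 RNA-seq libraries were made with a directional Illumina kit from 500 ng total RNA, per the labels' protocols. Upstream tools, per the submitters' processing notes, were TopHat2 2.0.13, Cuffdiff 2.2.1 and cutadapt 1.5, and the build was mm10. Per the file headers, the authors deposited estimated counts of fragments per gene and library, a scaled signal (fragments times a factor per library) and FPKM derived from it. The estimated counts (99.18% whole within 1e-06) were rounded and tested with edgeR 4.0.16 (quasi-likelihood, robust, TMM, smallest count 10, two-sided, Benjamini-Hochberg at 0.05) in R 4.3.3, after trials on simulated data. All 10 members passed the filter, with 12987 genes tested and 2 residual degrees of freedom. DESeq2 1.42.0 and limma 3.58.1 (voom, or log2 FPKM with a pseudocount of 1 or 0.1) served as alternatives. Gene positions come from GENCODE M21 and promoters from RefSeq.

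Nothing in the labels says whether the Low duplicates came from separate cultures: the p-values then reflect only the spread among these samples, and part of it may be technical. edgeR's biological coefficient of variation was 17.3% for the Low pair alone and 42.8% for the High pair alone. A count of 3 fragments corresponds to 0.107 to 0.216 CPM. The members and gene lists were chosen with earlier results of these data known. Named genes were the 10 members and, from each other list, the genes that passed (at most 6, by size of change) and the 2 tested genes with the highest mean CPM, a level not divided by length; genes outside this rule are marked in the text, and a gene that the rule names is not reported here.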

Additional observations from a re-analysis of the deposited data

How the results depend on the processing

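The 10 factors gave 0 calls in either direction under DESeq2, limma-voom, upper-quartile normalisation, no filter on low counts, limma on log2(FPKM + 1) or on log2(FPKM + 0.1) and the replicate block. With 1 library left out, 0 to 2 were called higher, the 2 being Fos and Fosl2 without High library 2, and 0 lower. Fos, Jun, Jund, Egr1, Atf3 and Maff kept their direction in all 12 alternatives. Fosl1 turned to -0.12 and -0.17 on FPKM with a pseudocount of 1 and 0.1, -0.15 with the replicate block and -0.16 with the crossed block. Leaving out 1 library gave ranges of -1.01 to 0.65 for Fosl1, -0.06 to 1.05 for Fosl2, -0.14 to 0.47 for Fosb and -0.17 to 0.38 for Junb. Among the other genes named, Nab1 turned to 0.01 with upper-quartile normalisation, and Dusp6 (0.00 or -0.01) and Hsp90aa1 (0.00) changed sign around 0 on several settings. With 1 library left out the ranges were -0.23 to 0.14 for Nab1, -0.33 to 0.08 for Elk3, -0.13 to 0.12 for Dusp6, -0.18 to 0.93 for Errfi1, -0.27 to 0.26 for Hsp90aa1 and -0.41 to 0.15 for Mki67. Of the genes in the other lists, 2 rose and 8 fell, against 9 and 14 with DESeq2, 7 rises without the filter, and 0 to 20 rises and 0 to 19 falls with 1 library left out. Over all genes, 148 rose and 173 fell, against 611 and 525 with DESeq2, 437 and 377 without the filter, 223 rises with the replicate block, and 0 to 1406 rises and 0 to 1069 falls with 1 library left out. The cause of these shifts was not tested. The replicate numbers are shared in name only: deviations of same-numbered libraries correlated at -0.139. The crossed block, chosen after seeing the data, called 38 rises and 56 falls over all genes, 1 and 3 in the other lists and 0 of the 10 factors. Without division by length, Fosl2 made up 93.4% (Low) and 93.1% (High) of the FOS sum and Junb 38.5% and 35.9% of the JUN sum. These are group means of the library shares, so they do not show the difference between the High libraries. Jund was above Junb in CPM in every library, so the lead of Junb depends on division by length. The values were 179 against 174 and 132 against 119 CPM in the Low pair, and 234 against 151 and 193 against 160 CPM in the High libraries. The fit with 3 groups cannot lose a Low library, since no residual degree of freedom would remain. Depth limits Fos, Fosb and Atf3 most, at 49 to 180 fragments a library.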
